A study of Mus musculus with 7 samples.

Results

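Interleukins and their receptors were followed in the white fat under the skin of the groin (inguinal adipose tissue) of mice treated with large proteins from brown fat cells. The set was defined by name: protein-coding genes of the count table whose symbol starts with Il and a digit. This set, and the marker and pathway lists below, were chosen with earlier results of these data known. The set held 84 of the 55487 genes in the table, under 82 symbols, since Il11ra2 stood for 3 gene identifiers. All mice were NOD/ShiLtJ, a strain that develops autoimmune diabetes, whose blood glucose had reached 190 to 230 mg/dL before treatment. The 3 sham samples came from mice given KRBH buffer. The 4 samples called imBAT here came from mice given the fraction above 100 kDa of buffer conditioned by brown adipocytes, under the skin for 7 days at 1.5 mg/kg body weight. Tissue was taken 2 to 8 weeks after injection, and neither the week nor the age of each animal was given. Whether each library came from its own mouse was not stated, so the p-values below cover the spread from library to library, which may be technical.

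Interleukins are secreted proteins through which leukocytes and tissue cells signal to each other. Each binds a receptor of several chains, and many chains are shared: the common gamma chain Il2rg serves the receptors of IL-2, IL-4, IL-7, IL-9, IL-15 and IL-21, and gp130, encoded by Il6st, serves those of IL-6, IL-11 and IL-27. Receptors of these families act through JAK kinases and STAT factors, whereas receptors of the IL-1 and IL-17 families act through adaptor proteins on NF-kB. In white fat, IL-33 is known to maintain regulatory T cells and innate lymphoid cells through its receptor ST2, encoded by Il1rl1, and IL-4 and IL-13 are known to act on resident macrophages.

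Levels are given as CPM, that is counts brought to a common library size with TMM factors, and a gene was called where the edgeR quasi-likelihood test gave a Benjamini-Hochberg adjusted p under 0.05 over all 26393 genes that passed the expression filter. Library totals ran from 41025786 to 63650016 counts. Of all genes tested 43.5% were called, 24.3% higher and 19.3% lower in imBAT, and for 52.0% the groups did not overlap. Of these calls 55.8% were higher, against 36.6% with upper-quartile scaling, under which the all-gene median of the log2 fold change was -0.25 instead of -0.01. Cell type markers moved with the groups. All 14 T cell markers were lower in imBAT, with a summed level of 1401 to 1761 CPM in sham and 234.4 to 742.2 CPM in imBAT, and all 10 B cell markers were lower (1892 to 2246 against 297.4 to 803.6 CPM). All 12 white adipocyte markers were higher (1191 to 2116 against 10010 to 19449 CPM), as were 9 of 12 macrophage markers (512.4 to 575.1 against 596.7 to 1923 CPM, lowest in imBAT replicate 2). Fewer cells of a type and less RNA per cell cannot be told apart in such tissue samples, and the part of these shifts in each result below was not tested.

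By family, 8 of 10 common gamma chain and IL-13 receptor genes and all 3 IL-12 and IL-23 receptor genes fell, while 3 of 5 IL-17 and 3 of 8 IL-1 family receptor genes rose. Over all genes tested, 19.3% were lower and 24.3% higher. Of the 84 genes, 64 passed the filter, and 36 of them (56.2%) were called against 43.5% of all genes tested. Among the 64, 25 (39.1%) were lower and 11 (17.2%) higher in imBAT, and the median log2 fold change was -0.34 against -0.01 over all genes tested. That median was -0.21 without imBAT replicate 2 and -0.59 with upper-quartile scaling. The groups did not overlap for 34 of the 64 (53.1%, against 52.0% of all genes). Of 40 tested receptor chains 17 fell and 8 rose (62.5% called). Of 21 tested ligands and ligand antagonists 7 fell and 2 rose (42.9% called, near the 43.5% of all genes tested).

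**Figure D1:**
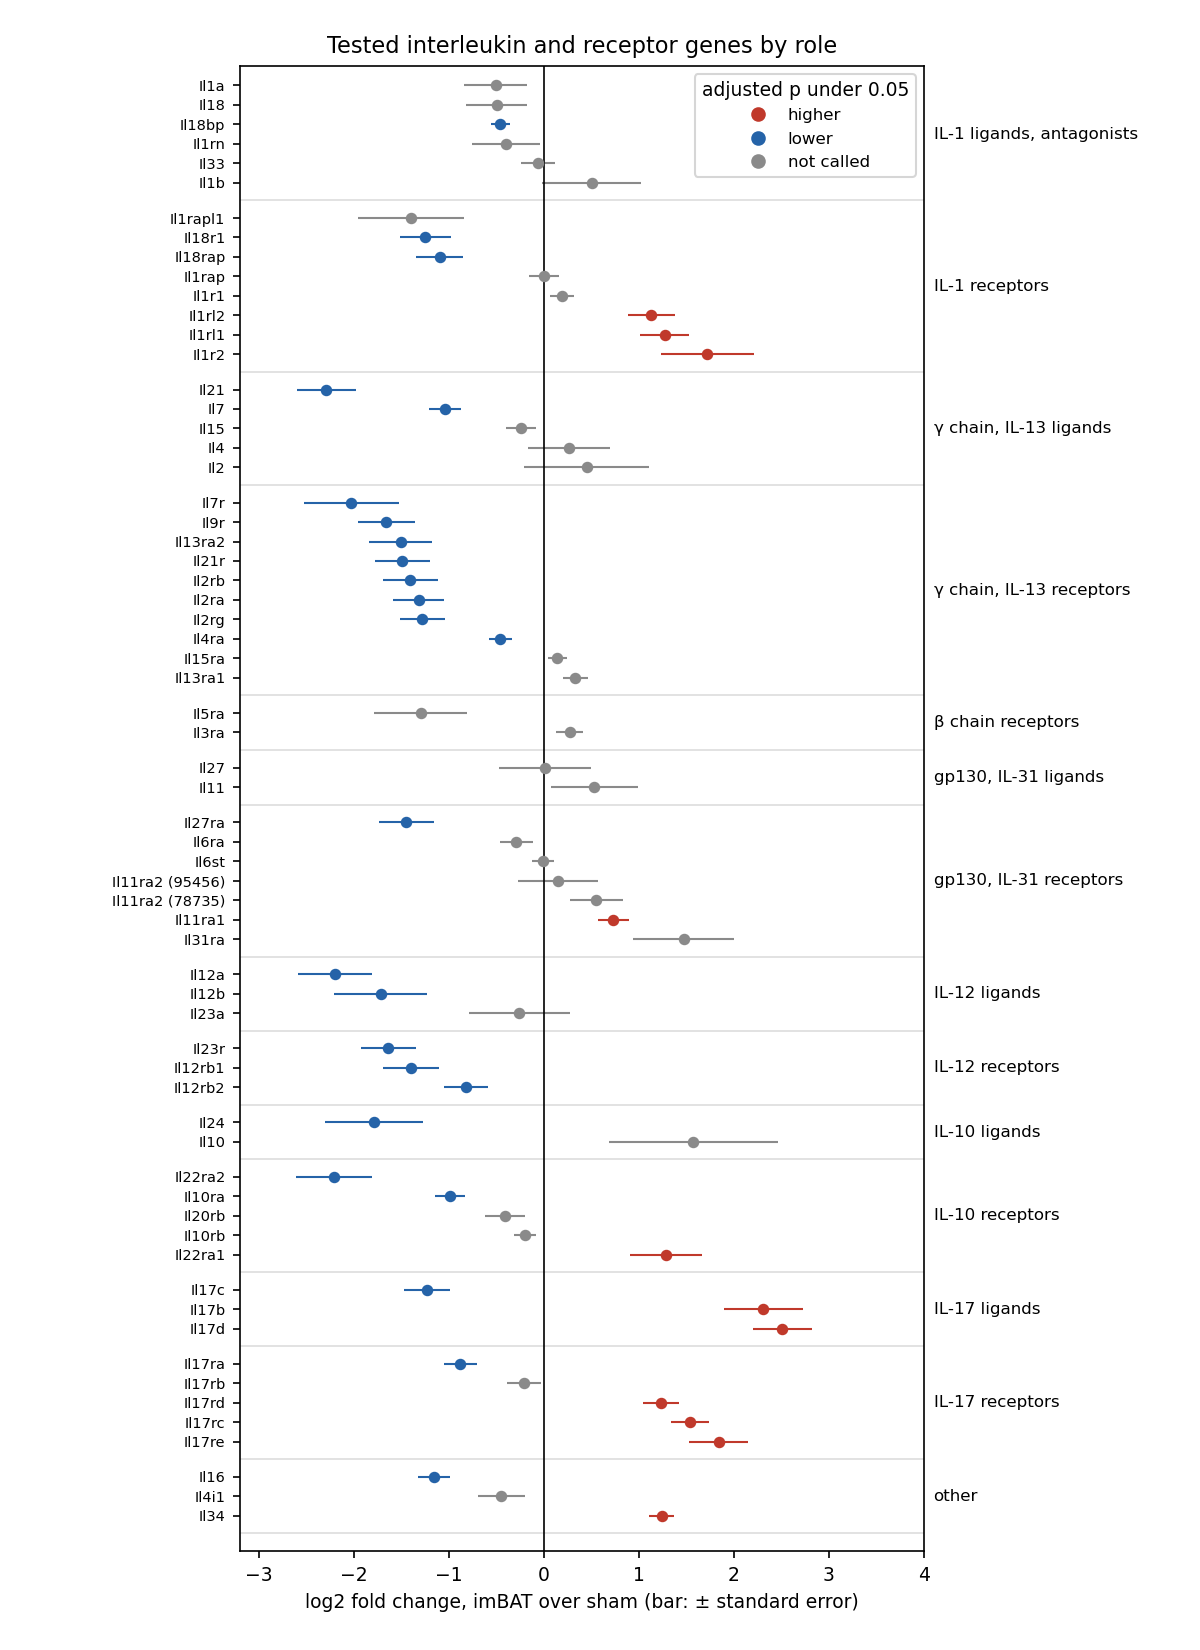
Log2 fold change (imBAT over sham, horizontal axis, bars ± SE) of each of the 64 tested genes, grouped by role and coloured by call. Nearly all tested common gamma chain and IL-12 receptors lie left of 0, while Il17rc, Il17rd and Il17re lie between 1.23 and 1.84.

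Compared per kilobase of exon, the levels changed their order between the groups. In sham the highest were Il6st (61.7 CPM per kb), Il21r (55.1), Il7r (47.9), Il2rg (43.7), Il4ra (42.7) and Il27ra (37.1). In imBAT Il6st was again first at 61.2 CPM per kb, followed by Il4ra (31.0), Il21r (19.5), Il2rg (18) and Il17rc (16.2), and Il7r stood at 11.7. The 20 genes under the filter had 0 to 62 counts over all 7 libraries together.

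The receptors of the common gamma chain, through which T and B cells receive survival and growth signals, were grouped with the IL-13 receptor chains Il13ra1 and Il13ra2, and 8 of these 10 tested genes were lower in imBAT, where 19.3% of all genes were, and their median log2 fold change was -1.36. None was higher in edgeR or DESeq2, while voom called 1, Il13ra1, which was also the only gene of the group higher at an unadjusted p under 0.05. The T cell markers beside them had a median of -1.51.

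Il7r, the alpha chain of the IL-7 receptor on naive and memory T cells, stood at 159.2, 309.5 and 201.5 CPM in sham replicates 1 to 3 and at 65.1, 63.3, 13.6 and 76.7 CPM in imBAT replicates 1 to 4. Every imBAT library lay below every sham library, and imBAT replicate 3 was lowest. It fell 4.09-fold (log2 fold change -2.03 ± 0.50 SE, adjusted p = 0.012), but with no expression filter it was not called (adjusted p = 0.0756). Il2rg, the common gamma chain itself, went from 94.4, 106.2 and 112.3 CPM to 51.2, 53.3, 23.8 and 43.6 CPM, a 2.43-fold fall (adjusted p = 0.00461), and 30.5% of its exon bases are shared with Gm20489 on the same strand. Il2rb, shared by the IL-2 and IL-15 receptors, went from 107.7, 128.2 and 100.4 CPM to 45.1, 53.5, 20.2 and 49.9 CPM (2.66-fold, adjusted p = 0.00604). Il2ra, which encodes CD25 and gives regulatory and activated T cells their high-affinity IL-2 receptor, went from 23.8, 30.5 and 31.3 CPM to 12.4, 12.8, 5.95 and 14.6 CPM (2.49-fold, adjusted p = 0.00618). For each of these chains the groups were apart and imBAT replicate 3, the library with the lowest summed T cell markers, had the lowest value.

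Il21r, the receptor of IL-21 on B cells and T cells, stood at 193.1, 163.4 and 192.4 CPM in sham and 76.9, 89.6, 32.1 and 61.1 CPM in imBAT, and fell 2.82-fold (adjusted p = 0.005). Il9r went from 72.4, 60.9 and 60.6 CPM to 26.8, 22.5, 9.25 and 23.2 CPM and fell 3.16-fold (adjusted p = 0.00393). Again the 4 imBAT libraries lay below the 3 sham libraries for both genes. Il4ra, the signalling chain for IL-4 and IL-13 that many cell types carry, fell less: from 260.2, 251.1 and 257.0 CPM to 221.2, 183.5, 176.0 and 162.9 CPM (log2 fold change -0.46 ± 0.12, adjusted p = 0.0134). Il13ra2, a receptor that takes up IL-13, was low and fell from 1.70 ± 0.27 (SD, n = 3) to 0.59 ± 0.24 CPM (n = 4, adjusted p = 0.00739). Il13ra1 (25.5 ± 2.7 against 32.0 ± 3.6 CPM, adjusted p = 0.0629) and Il15ra (47.4 ± 3.6 against 52.3 ± 4.8 CPM, adjusted p = 0.295) were not called. Without imBAT replicate 3, and in voom, Il13ra1 was called higher (adjusted p = 0.0494 and 0.00954).

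**Figure D2:**
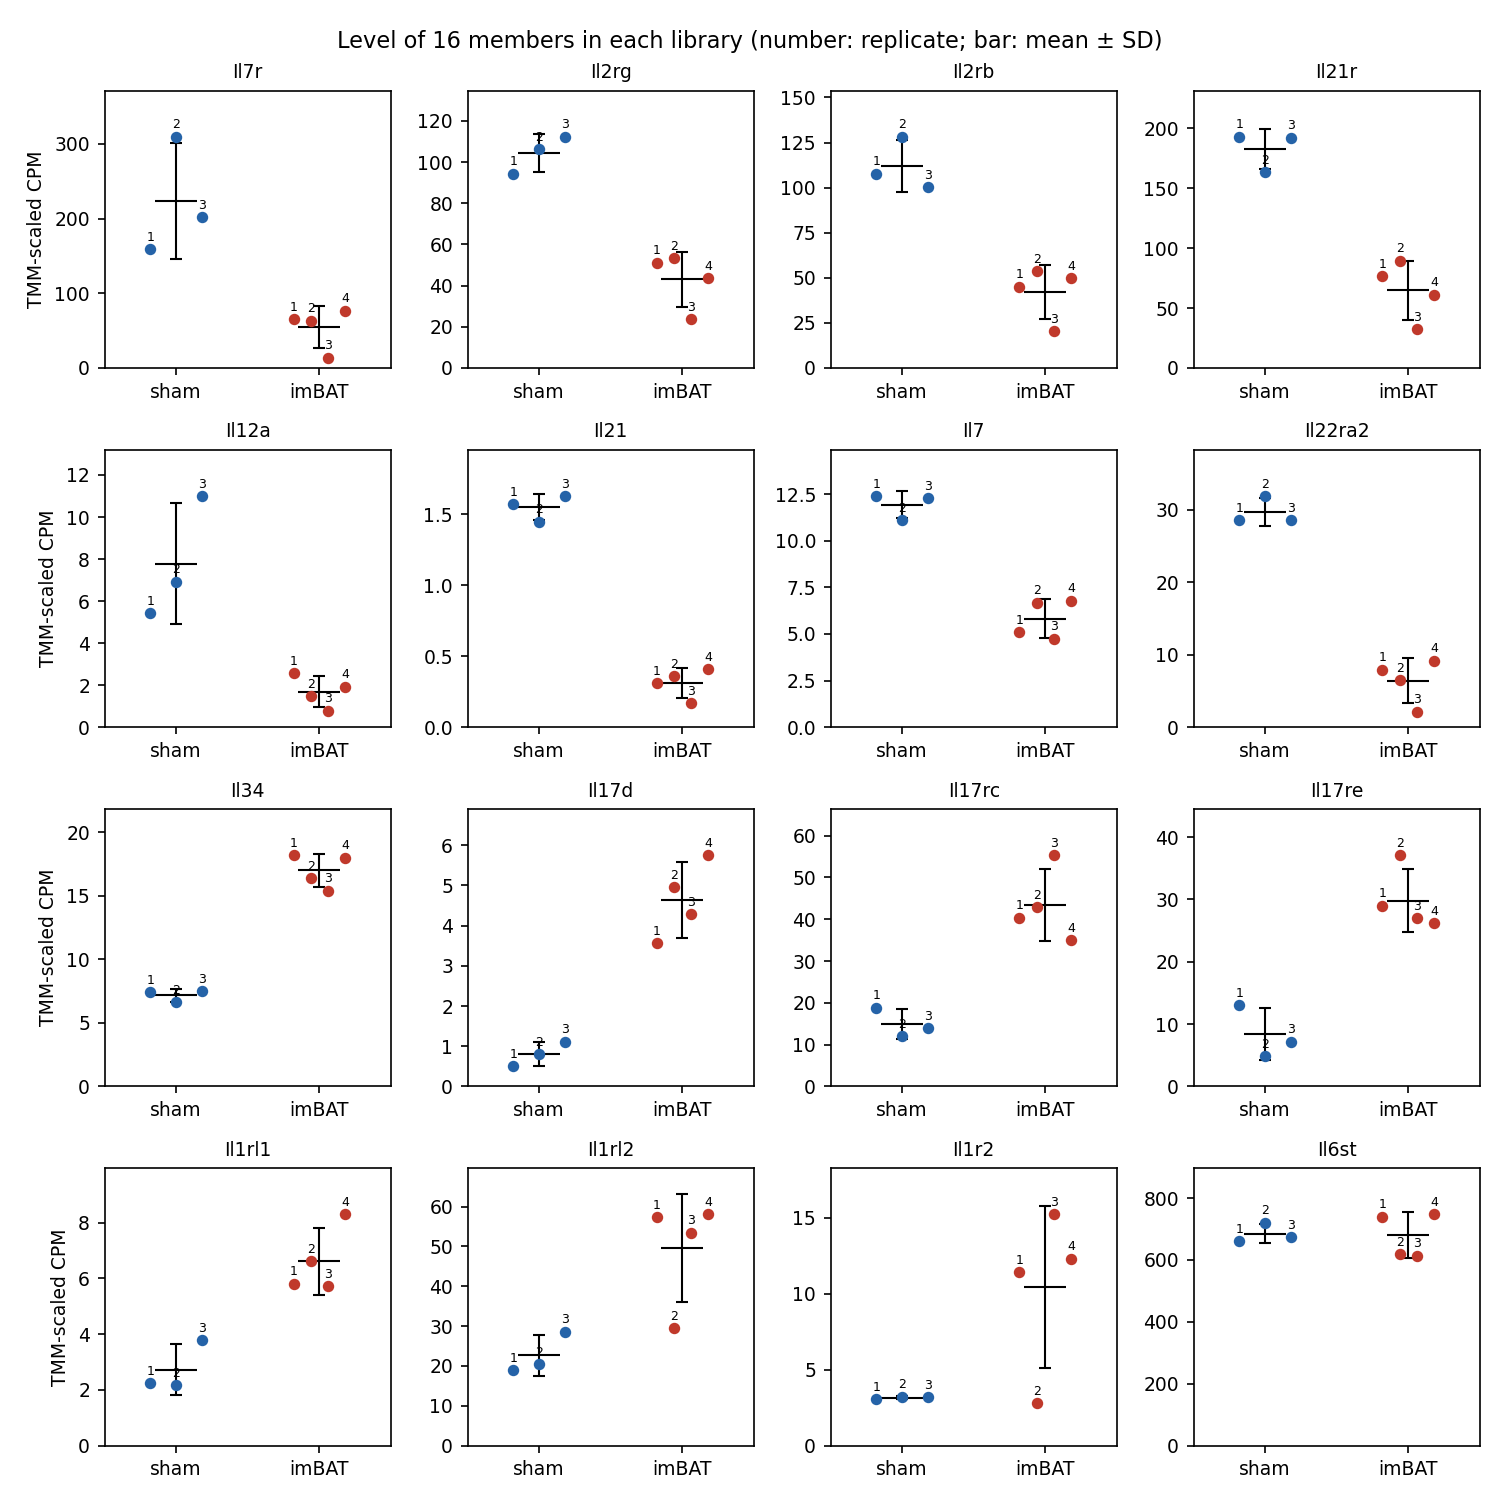
TMM-scaled CPM (vertical axes, each from 0) of 16 genes in each sham and imBAT library, numbered by replicate, with the mean and SD. The groups are apart in every panel except Il1r2, where imBAT replicate 2 lies at the sham level, and Il6st, where they overlap.

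Among the ligands of this group, Il21 and Il7 fell. Il21, a product of follicular helper T cells, stood at 1.57, 1.45 and 1.63 CPM in sham and 0.31, 0.36, 0.17 and 0.41 CPM in imBAT, a 4.88-fold fall (log2 fold change -2.29 ± 0.31, adjusted p = 0.00152). Il7, which stromal cells of lymphoid tissue make for T cell survival, went from 12.4, 11.1 and 12.3 CPM to 5.11, 6.67, 4.75 and 6.78 CPM (2.05-fold, adjusted p = 0.00286). In both cases the groups were well apart. Beside Il7, 4 of 7 tested lymph node stroma and venule markers were lower, with a median log2 fold change of -0.91. Cxcl13, Lyve1 and Pdpn were not called, at log2 fold changes of 0.48, 0.37 and 0.53. The summed level was 784.5 to 1199 CPM in sham, most of it Glycam1, and 270.8 to 576.2 CPM in imBAT, so its fall is largely that of Glycam1. Glycam1, a product of lymph node venules, stood at 940.5, 1029.1 and 679.7 CPM in sham and 316.2, 231.9, 96.4 and 295.4 CPM in imBAT (adjusted p = 0.00435). The part of lymph node tissue in the falls of Il7 and of the lymphocyte genes was not tested. Il15 was not called, at 10.4 ± 1.3 in sham and 8.82 ± 1.07 CPM in imBAT (adjusted p = 0.245), although with upper-quartile scaling it was (log2 fold change -0.48, adjusted p = 0.0352). Il2 and Il4, products of activated T cells, were near the limit of detection, at 0.07 to 0.49 and 0.35 to 0.93 CPM in single libraries, and were not called. Il9 and Il13 were under the filter, with 17 and 40 counts in all.

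Set against the summed T cell markers of the same library, 6 of the 8 fallen receptors of this group no longer separated the groups. Per 100 CPM of those 14 markers, Il2rb stood at 5.70 to 7.74 in sham and 6.76 to 8.61 in imBAT, Il21r at 9.86 to 13.8 and 10.2 to 13.7, Il27ra at 7.64 to 8.35 and 7.61 to 10.1, and Il7r at 11.4 to 18.7 and 5.81 to 12.8. Il21 (0.0873 to 0.112 against 0.0469 to 0.0734) and Il22ra2 (1.62 to 2.04 against 0.868 to 1.53) were lower in every imBAT library on this scale too, and Il12a was so by a narrow margin (0.387 to 0.623 against 0.198 to 0.384). Il4ra (14.6 to 18.6 against 24.7 to 75.1) and Il17ra (10.9 to 12.8 against 14.8 to 30.1) were higher in every imBAT library. So were uncalled genes such as Il6st (38.3 to 47.1 against 83.3 to 262) and Il33 (0.781 to 1.44 against 1.84 to 7.36). The marker sum fell in imBAT, so any gene that fell less than it rises on this scale. This scale, and the genes shown on it, were chosen after the values were seen, and no test was made on it.

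**Figure D3:**
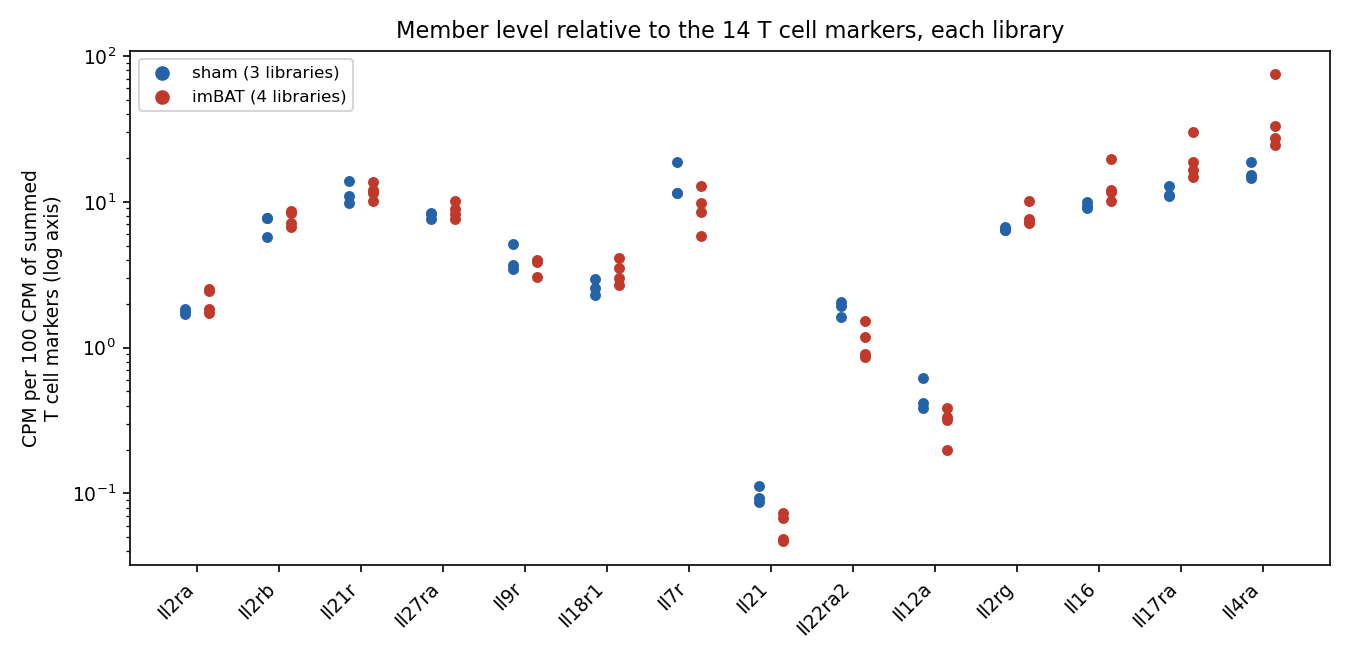
Level of 14 called genes per 100 CPM of the summed T cell markers (vertical log axis) in each sham and imBAT library. Il21, Il22ra2 and Il12a lie lower in imBAT, Il2rg, Il16, Il17ra and Il4ra higher, and the groups overlap for the other 7.

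IL-12 and IL-23 steer T cells and natural killer cells towards inflammatory programmes. Of the 6 tested genes of their subunits and receptor chains 5 fell, where 19.3% of all genes tested were lower. Other genes of the IL-12 family were grouped elsewhere. Among those, Il27ra fell, while Il27 (log2 fold change 0.01, adjusted p = 0.985) and Ebi3 (0.57, adjusted p = 0.361) were not called. Il12a, the p35 subunit that IL-12 and IL-35 share, stood at 5.42, 6.93 and 11 CPM in sham and 2.56, 1.47, 0.79 and 1.92 CPM in imBAT, a 4.59-fold fall (log2 fold change -2.20 ± 0.39, adjusted p = 0.0035). Il12b, the p40 subunit of IL-12 and IL-23, went from 0.88, 2.27 and 1.53 CPM to 0.22, 0.39, 0.39 and 0.91 CPM (adjusted p = 0.0221). The groups touched for Il12b, since imBAT replicate 4 lay above sham replicate 1, and it was no longer called when sham replicate 2, sham replicate 3 or imBAT replicate 2 was left out (adjusted p = 0.0978, 0.0611 and 0.0517). Il23a, the remaining subunit of IL-23, was not called at 0.41 ± 0.11 against 0.34 ± 0.24 CPM. All 3 receptor chains were lower: Il23r fell 3.12-fold from 2.41, 3.78 and 2.33 CPM to 0.72, 1.10, 0.71 and 1.10 CPM (adjusted p = 0.00317), and Il12rb1, common to the IL-12 and IL-23 receptors, 2.64-fold from 9.28, 12.3 and 11 CPM to 3.37, 6.08, 2.46 and 4.48 CPM (adjusted p = 0.00587). Il12rb2 fell 1.77-fold, from 2.33 ± 0.43 to 1.32 ± 0.20 CPM (adjusted p = 0.0202), and without sham replicate 2 it missed the threshold at a log2 fold change of -0.68 against -0.82 (adjusted p = 0.0933). Its gene shares 40% of its exon bases with Serbp1 on the opposite strand, and with the strand setting unknown its value is uncertain.

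The IL-1 receptor family split. Of 8 tested receptor genes 3 rose and 2 fell (62.5% called, against 43.5% of all genes tested). In this family 6 genes lie side by side on the same strand of chromosome 1, from 40074079 to 40551705 (GENCODE M21, GRCm38). Their order is Il1r2, Il1r1, Il1rl2, Il1rl1, Il18r1 and Il18rap. Il1rl1, which encodes the IL-33 receptor ST2, went from 2.23, 2.17 and 3.79 CPM in sham to 5.81, 6.61, 5.71 and 8.29 CPM in imBAT, a 2.42-fold rise (log2 fold change 1.27 ± 0.26, adjusted p = 0.00572). Of the cell types known to carry ST2, all 5 regulatory T cell markers were lower (147.4 to 187.1 against 45.7 to 77.6 CPM, summed) and 5 of 6 mast cell and basophil markers higher (65.1 to 104.6 against 185.6 to 233.3 CPM). Natural killer and innate lymphoid cell markers split: of 10, 4 were higher (Gata3, Rora, Areg and Gzma) and 3 lower (Klrk1, Eomes and Prf1). Whether Gata3, Rora and Areg came from lymphoid cells in this tissue was not tested. Of 8 tested mammary epithelium and keratinocyte markers, 7 were higher as well. The part of any of these cell types in the rise of Il1rl1 was not tested. Il18r1, which begins 136 bases after the end of Il1rl1 and encodes the IL-18 receptor of T cells and natural killer cells, went the other way, from 32.1, 48.8 and 44.9 CPM to 17.8, 22.1, 9.59 and 21.1 CPM (log2 fold change -1.25 ± 0.27, adjusted p = 0.00778). Its partner chain Il18rap, the next gene, fell with it, from 10.1, 15.1 and 11.5 CPM to 4.70, 5.74, 4.21 and 8.13 CPM (2.15-fold, adjusted p = 0.00871). The border between higher and lower genes in the cluster thus lay between 2 neighbours with non-overlapping groups on either side.

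Upstream of Il1rl1 in the cluster, Il1rl2, the receptor of the IL-36 cytokines, stood at 18.9, 20.4 and 28.6 CPM in sham and 57.3, 29.4, 53.4 and 58.0 CPM in imBAT, and rose 2.19-fold (adjusted p = 0.00876). imBAT replicate 2 lay only just above the highest sham library. Il1r2, the decoy receptor that binds IL-1 without signalling, stood at 3.07, 3.23 and 3.18 CPM in sham and 11.4, 2.81, 15.2 and 12.3 CPM in imBAT (log2 fold change 1.72 ± 0.49, adjusted p = 0.0216). Here imBAT replicate 2 lay below all sham libraries, and the call was lost without sham replicate 1, 2 or 3, without imBAT replicate 3 and with no expression filter (adjusted p 0.056 to 0.0685). The summed macrophage markers had the same odd library: imBAT replicate 2 stood at 596.7 CPM, and the other 3 of its group at 1451 to 1923 CPM. That library was also lowest of its group for summed neutrophil markers (11.2 against 31.9 to 54 CPM) and white adipocyte markers (10010 against 13163 to 19449 CPM). It was highest for T and B cell markers (742.2 and 803.6 CPM). The part of any of these cell types in Il1r2 was not tested. Il1r1, the signalling IL-1 receptor, stood at 53.1 ± 4.5 in sham and 60.4 ± 8.3 CPM in imBAT and was not called (log2 fold change 0.19, adjusted p = 0.264, and -0.06 with upper-quartile scaling). The shared accessory chain Il1rap, on another chromosome, stood at 10.6 ± 0.4 and 10.6 ± 1.7 CPM (adjusted p = 0.994). Il1rapl1, a brain-enriched relative, was at 0.05 to 0.48 CPM and not called, except lower with upper-quartile scaling (adjusted p = 0.042), and Il1rapl2 had 2 counts in all.

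**Figure D4:**
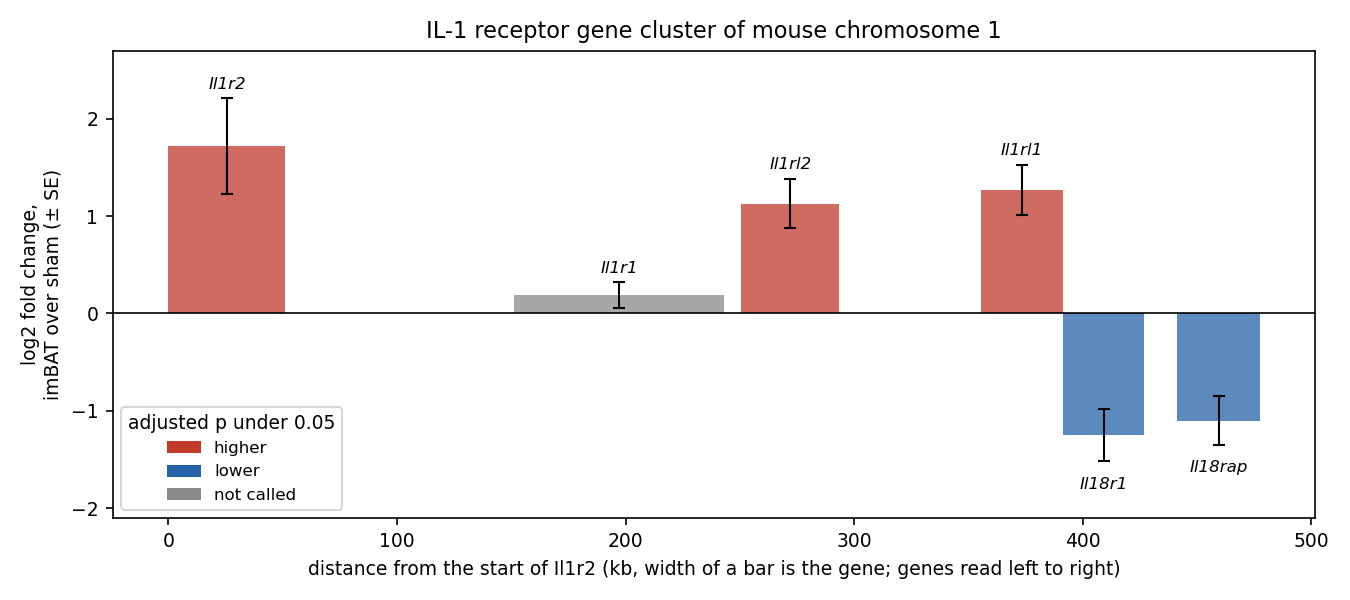
Log2 fold change (imBAT over sham, vertical axis, bars ± SE) of the 6 genes of the chromosome 1 cluster, drawn at their distance in kb from the start of Il1r2. Il1r2, Il1rl2 and Il1rl1 lie above 0, Il18r1 and Il18rap below 0, and Il1r1 near 0.

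Of 6 tested IL-1 family ligands and antagonists 1 fell (16.7% called, against 43.5% of all genes tested). None rose in edgeR, DESeq2, voom or at an unadjusted p under 0.05. Il33, the alarmin of stromal cells and partner of Il1rl1, stood at 20.1, 19.2 and 13.7 CPM in sham and 19.9, 13.7, 17.3 and 17.0 CPM in imBAT (log2 fold change -0.06 ± 0.18, adjusted p = 0.801). Il18 was at 4.13, 6.03 and 5.90 CPM and 4.15, 1.90, 4.92 and 4.19 CPM (adjusted p = 0.224), and Il1b, the main inflammatory IL-1 of macrophages, at 1.92, 1.71 and 1.09 CPM and 1.00, 1.06, 4.11 and 2.80 CPM (adjusted p = 0.459). The groups overlapped for all 3. Il18bp, the secreted antagonist of IL-18, was the ligand-side gene that fell, from 26.4, 30.3 and 27.6 CPM to 21.0, 20.8, 20.2 and 19.5 CPM (log2 fold change -0.46 ± 0.10, adjusted p = 0.00634). Il1a and the IL-1 receptor antagonist Il1rn were between 0.65 and 2.79 CPM and not called. The IL-36 and IL-38 genes Il1f5, Il1f6, Il1f8, Il1f9 and Il1f10 had 0 to 49 counts in all and were under the filter.

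IL-17 family genes gave the 3 largest fitted rises of the set. Il17d, a ligand made outside the immune system in many tissues, stood at 0.51, 0.80 and 1.11 CPM in sham and 3.56, 4.96, 4.28 and 5.75 CPM in imBAT, a 5.71-fold rise (log2 fold change 2.51 ± 0.31, adjusted p = 0.00115). Il17b went from 0.51, 0.36 and 1.11 CPM to 3.76, 3.99, 2.12 and 3.26 CPM (log2 fold change 2.31 ± 0.42, adjusted p = 0.00363, and 2.92 without sham replicate 3), and shares 14.5% of its exon bases with Gm38165 on the opposite strand. Il17c, an epithelial ligand that binds Il17re, fell from 3.18, 3.74 and 4.66 CPM to 1.59, 1.82, 1.21 and 1.94 CPM (2.35-fold, adjusted p = 0.00444). So 2 of the 3 tested ligands rose and the third fell, with the groups apart for each. Of all genes tested 43.5% were called, and for 52.0% the groups did not overlap. The T cell cytokines Il17a and Il17f had 4 and 38 counts in all, and Il25 had 11. Il17f counts were 8, 8 and 13 in sham and 5, 4, 0 and 0 in imBAT, and a fit with no expression filter gave it adjusted p = 0.151.

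Among the IL-17 receptors 3 of 5 rose and 1 fell (80.0% called, against 43.5% of all genes tested). Il17rc, which pairs with Il17ra to bind IL-17A and IL-17F, stood at 18.8, 12.0 and 14 CPM in sham and 40.4, 42.8, 55.3 and 35.0 CPM in imBAT, a 2.91-fold rise (log2 fold change 1.54 ± 0.20, adjusted p = 0.00135). Its neighbour Il17re, which ends 668 bases before Il17rc on the same strand of chromosome 6 (113458484 to 113470758), rose 3.57-fold from 13.0, 4.88 and 7.20 CPM to 29.0, 37.1, 27.0 and 26.2 CPM (adjusted p = 0.00313). Il17rd, also known as a regulator of fibroblast growth factor signalling, rose 2.34-fold from 9.92, 6.25 and 9.49 CPM to 20.1, 18.3, 18.6 and 23.0 CPM (adjusted p = 0.00209). Il17ra, the chain common to the family's receptors and abundant on leukocytes, instead fell 1.84-fold from 179.8, 180.3 and 196.1 CPM to 125.2, 109.9, 70.6 and 97.7 CPM (adjusted p = 0.00514). Il17rb, the receptor of IL-25, was not called (10.5 ± 0.8 against 9.10 ± 1.92 CPM, adjusted p = 0.373). Several marker lists moved with the 3 receptors that rose. Of 8 tested mammary epithelium and keratinocyte markers 7 were higher, with a summed level of 93.2 to 304 CPM in sham and 606.2 to 1238 CPM in imBAT. Krt10 was the one not called. So were 9 of 10 adipose stromal progenitor markers higher (852.2 to 1087 against 4218 to 6858 CPM), all 12 white adipocyte markers and 7 of 8 blood endothelium markers. Their part in the rises was not tested.

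Of 7 tested receptor genes of the gp130 and IL-31 group, 1 rose and 1 fell (28.6% called, against 43.5% of all genes tested). Their median log2 fold change was 0.15. Il6st, which encodes the shared signalling chain gp130, stood at 659.9, 720.4 and 674.6 CPM in sham and 739.8, 618.3, 613.8 and 746.8 CPM in imBAT (log2 fold change -0.01 ± 0.12, adjusted p = 0.946). Il6ra was at 149.5, 159.8 and 175.9 CPM and 149.7, 110.9, 103.0 and 166.9 CPM (adjusted p = 0.21), with overlapping groups, although upper-quartile scaling called it lower (log2 fold change -0.53, adjusted p = 0.0347). Il27ra, the IL-27 receptor of lymphocytes, fell 2.73-fold from 117.0, 126.6 and 145.0 CPM to 50.8, 65.8, 23.6 and 49.3 CPM (adjusted p = 0.00515). Il11ra1, the stromal IL-11 receptor, rose 1.66-fold from 28.4, 22.4 and 22.8 CPM to 48.4, 34.4, 46.3 and 34.2 CPM (adjusted p = 0.00825). The near-identical copies under the symbol Il11ra2 may share reads with it and are uncertain: ENSMUSG00000078735 was at 1.18 to 2.92 CPM and ENSMUSG00000095456 at 0.24 to 0.57 CPM, neither called, and ENSMUSG00000095623 had 0 counts. Il31ra, the itch-linked IL-31 receptor, stood at 2.48, 1.06 and 0.70 CPM and 5.33, 1.59, 5.07 and 3.67 CPM and just missed the threshold (log2 fold change 1.47 ± 0.53, adjusted p = 0.0521). DESeq2, voom and leaving out sham replicate 1 or imBAT replicate 2 each called it higher (adjusted p 0.00675 to 0.0186).

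The interleukin ligands of these receptors were scarce in all libraries. Il6, the inflammatory cytokine that gives the family its name, was counted 4, 7 and 7 times in sham replicates 1 to 3 and 8, 0, 4 and 8 times in imBAT replicates 1 to 4, too few to test. Il11 (0.13 to 0.38 CPM) and Il27 (0.22 to 0.78 CPM) were tested and not called, and Il31 had 7 counts in all. In edgeR none of the 2 tested ligands was called in either direction, nor in DESeq2, voom or at an unadjusted p under 0.05. For the common beta chain family, Il3ra (21.9 ± 2.3 against 26.4 ± 3.5 CPM, adjusted p = 0.141) and Il5ra, of eosinophils and some B cells (3.03 ± 0.78 against 1.23 ± 0.82 CPM, adjusted p = 0.0573), were not called in edgeR, where Il5ra alone had an unadjusted p under 0.05. DESeq2, voom, upper-quartile scaling and leaving out imBAT replicate 4 called Il5ra lower (adjusted p 0.0129 to 0.0299), and voom and leaving out imBAT replicate 2 called Il3ra higher (adjusted p = 0.0337 and 0.0373). Their ligands Il3 and Il5 had 5 and 62 counts in all.

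Of 5 tested IL-10 family receptor genes 2 fell, Il10ra and Il22ra2, and 1 rose, Il22ra1 (60.0% called, against 43.5% of all genes tested). Il10ra, the IL-10 binding chain of leukocytes, went from 86.8, 101.0 and 89.4 CPM to 57.4, 36.2, 40.2 and 52.5 CPM, a 1.98-fold fall (log2 fold change -0.99 ± 0.16, adjusted p = 0.00275). Il22ra2, a secreted antagonist of IL-22 made by dendritic cells, fell 4.63-fold from 28.6, 31.9 and 28.6 CPM to 7.93, 6.44, 2.12 and 9.16 CPM (log2 fold change -2.21 ± 0.40, adjusted p = 0.00364). Of 8 dendritic cell markers 6 were lower beside it, with a median log2 fold change of -1. Il22ra1, the IL-22 receptor of epithelia, rose from 0.27 ± 0.10 to 0.66 ± 0.13 CPM (adjusted p = 0.0254), but missed the threshold when sham replicate 2 (adjusted p = 0.0878) or imBAT replicate 2 (0.056) was left out or with upper-quartile scaling (0.0505). Il10rb (37.0 ± 1.5 against 32.3 ± 4.4 CPM) and Il20rb (6.65 ± 1.71 against 5.02 ± 0.30 CPM) were not called, and Il20ra had 9 counts in all. With upper-quartile scaling both were called lower (adjusted p = 0.0116 and 0.0338), and Il20rb was also without sham replicate 1 (0.0317).

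Il10, the anti-inflammatory cytokine itself, stood at 0.51, 0.82 and 0.23 CPM in sham and 4.13, 0.25, 1.16 and 0.67 CPM in imBAT and was not called (adjusted p = 0.182). Its log2 fold change of 1.57 was 0.39 without imBAT replicate 1, the library with 224 Il10 counts against 15 to 47 in the other imBAT libraries. Il24 fell from 1.55, 1.10 and 1.79 CPM to 0.85, 0.46, 0.15 and 0.22 CPM (log2 fold change -1.79 ± 0.52, adjusted p = 0.0234), and it missed the threshold when sham replicate 1 or 3 was left out (adjusted p = 0.0568 and 0.082), while without imBAT replicate 1 the value was -2.38. Il19, Il20 and Il22 had 11, 0 and 2 counts in all.

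Among the remaining genes, Il34 and Il16 moved in opposite directions. Il34, a ligand of the CSF1 receptor that sustains some tissue macrophages, had the smallest p of the set. It stood at 7.43, 6.61 and 7.49 CPM in sham and 18.2, 16.4, 15.4 and 18 CPM in imBAT, a 2.37-fold rise (log2 fold change 1.24 ± 0.13, adjusted p = 0.000877). The spread within each group was small against the gap between them. Il16, a chemoattractant precursor of lymphocytes, fell 2.24-fold from 138.9, 155.9 and 159.4 CPM to 77.5, 75.3, 45.8 and 72.2 CPM (adjusted p = 0.00203), and 15.3% of its exon bases are shared with Stard5 on the opposite strand. Il4i1, an amino acid oxidase of antigen-presenting cells, was not called (1.46 ± 0.24 against 1.06 ± 0.19 CPM), and 83.9% of its exon bases are shared with Tbc1d17.

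Since the receptors of the JAK-STAT type signal through STAT factors, the promoters of the set were searched for the STAT motif TTCNNNGAA, which reads the same on both strands. RefSeq promoters (GRCm38.p6, 250 bases before to 50 after a start site) were matched for 65 of the symbols, with 80 promoters. The motif was in 10 of these 80 (12.5%), against 8.30% of all 32851 promoters, and in 3 of 22 promoters of genes that fell and 2 of 11 of genes that rose. A match describes these letters and shows no binding. The called genes with a match were Il7r, Il18r1, Il12rb2, Il1r2 and Il17d. For Il17d it lay after the start site, and the 250 bases before the start of the other 4 are shown with the motif in capitals, 5′ to 3′ on the strand of the gene, since they join the fallen T cell receptors and the cluster's decoy receptor. Il7r is on the minus strand (chr15:9529877-9530126, motif from -142 counted from the start site as 0), as is Il12rb2 (chr6:67376189-67376438, from -123). Il18r1 (chr1:40465756-40466005, from -219 and -152) and Il1r2 (chr1:40085843-40086092, from -111) are on the plus strand, and the Il18r1 promoter shown has 2 matches, while the other 2 promoters listed for Il18r1 have 0.
Il7r: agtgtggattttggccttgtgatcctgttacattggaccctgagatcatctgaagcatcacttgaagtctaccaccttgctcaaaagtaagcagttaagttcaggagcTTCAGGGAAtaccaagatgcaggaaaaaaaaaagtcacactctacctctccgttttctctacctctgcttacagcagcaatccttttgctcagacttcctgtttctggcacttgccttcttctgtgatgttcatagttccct
Il12rb2: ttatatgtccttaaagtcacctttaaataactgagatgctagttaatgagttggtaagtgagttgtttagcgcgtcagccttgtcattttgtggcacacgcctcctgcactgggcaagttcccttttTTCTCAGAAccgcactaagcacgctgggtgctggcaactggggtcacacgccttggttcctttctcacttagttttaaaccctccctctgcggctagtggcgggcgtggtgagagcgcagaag
Il18r1: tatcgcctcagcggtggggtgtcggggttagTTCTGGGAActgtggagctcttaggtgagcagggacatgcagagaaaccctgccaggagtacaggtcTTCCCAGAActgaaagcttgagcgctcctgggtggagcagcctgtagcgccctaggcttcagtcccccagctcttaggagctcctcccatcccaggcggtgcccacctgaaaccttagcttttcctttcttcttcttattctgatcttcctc
Il1r2: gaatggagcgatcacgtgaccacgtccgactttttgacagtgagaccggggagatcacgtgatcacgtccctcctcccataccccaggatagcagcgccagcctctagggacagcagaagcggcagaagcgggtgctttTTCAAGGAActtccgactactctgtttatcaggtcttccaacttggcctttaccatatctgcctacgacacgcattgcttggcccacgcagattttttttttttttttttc

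Of 11 JAK and STAT genes, which carry the signal of these receptors, 6 fell and 1 rose (63.6% called, against 43.5% of all genes tested), with a median log2 fold change of -0.33. Stat4, the factor of IL-12 signalling, fell 3.49-fold from 24.0, 38.8 and 29.1 CPM to 8.26, 12.4, 4.16 and 10.2 CPM (adjusted p = 0.00397). Stat5a, used by IL-2 and IL-7 but also by growth hormone and prolactin, rose 2.02-fold from 104.2, 90.9 and 96.6 CPM to 216.4, 216.5, 186.9 and 166.6 CPM (adjusted p = 0.00107). The near-identical gene Stat5b was not called (log2 fold change -0.10, adjusted p = 0.408). Of 12 feedback inhibitors of the SOCS, CISH and PIAS type 4 fell and 1 rose, a share of 41.7% near the 43.5% of all genes, with Socs1 2.16-fold lower (adjusted p = 0.0015) and Socs3 1.46-fold lower (adjusted p = 0.00525).

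For the IL-1 and IL-17 receptors, 5 of 17 adaptor genes fell and 2 rose, a share of 41.2% that is also near that of all genes. Traf5 fell 1.97-fold (adjusted p = 0.00183), Zc3h12a, whose product degrades cytokine messengers, 1.59-fold (adjusted p = 0.00551), and Tollip, an inhibitor of IL-1 receptor signalling, rose 1.45-fold (adjusted p = 0.00297). The central adaptor Myd88 was not called (log2 fold change 0.05, adjusted p = 0.732). Of 13 tested inflammasome and processing genes 7 fell and 2 rose (69.2% called, against 43.5% of all genes tested). The DNA sensor Aim2 fell 3.09-fold (adjusted p = 0.00163), the pore protein Gsdmd 1.55-fold (adjusted p = 0.00245) and the adaptor Pycard 1.79-fold (adjusted p = 0.00416). The caspase that processes IL-1 beta and IL-18, Casp1, fell 1.53-fold (adjusted p = 0.0145). Nek7, a kinase that activates NLRP3, rose 1.55-fold (adjusted p = 0.00303), and Prtn3, a neutrophil protease, 4.57-fold from 2.50, 1.73 and 3.94 CPM to 25.6, 4.91, 6.42 and 12.9 CPM (adjusted p = 0.0183). Nlrp3 itself was not called at 2.04 to 4.06 CPM. Elane, another neutrophil protease of the list, was not called either (log2 fold change 0.33, adjusted p = 0.583 in edgeR). T and B cell markers (medians -1.51 and -1.77) moved beside these lists. Over all 5 pathway lists 15 of 74 tested genes rose and 27 fell, where 24.3% of all genes tested rose and 19.3% fell. Of the list calls 35.7% were higher, against 55.8% over all genes. With upper-quartile scaling these shares were 18.4% and 36.6%.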

How the data were processed

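RNA of 3 sham and 4 imBAT samples had been sequenced on a NovaSeq. Reads were aligned to Ensembl release 101 (primary assembly) by STAR 2.7.9a, per the labels' protocols. Salmon 1.5.2, featureCounts 2.0.3, Subread, limma and edgeR are also named, with no role, per the submitters' processing notes. For the strand setting and for multiply mapped reads, the handling is not given in the sources used here. The authors deposited raw read counts per gene: 55774 rows, of which 287 repeated an identifier with identical counts and were dropped. Groups came from the treatment label, and replicates were numbered in accession order. Libraries of 1 group differed by more than sampling noise (chi-square 22.5 to 241.2 per degree of freedom).

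The whole table was fitted with edgeR 4.0.16 in R 4.3.3 (quasi-likelihood F test, robust, TMM scaling, expression filter with a minimum count of 10, group alone), and p-values were adjusted by Benjamini-Hochberg over the 26393 genes tested. A standard error is the log2 fold change divided by the square root of F. The steps were also run on simulated counts with few changed genes, balanced in direction and with a single dispersion. In these data 43.5% of genes were called, so that run does not test the scaling used here. The members and lists were chosen with earlier results of these data known. Named genes are up to 4 per role with the smallest p, and 12 fixed by name; the remaining members are named with values, counts or ranges. Each list of pathway genes and cell markers was described by counts and medians. Exon lengths and coordinates are from GENCODE M21 (GRCm38), which held all 84 members. Alternatives were RLE and upper-quartile scaling, 2 other filters, DESeq2 1.42.0, voom in limma 3.58.1 with quality weights, a block on the leading number of the sample titles, each library left out in turn, and an adjusted p under 0.10.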

Additional observations from a re-analysis of the deposited data

Results flagged for a closer look

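In 4 of the 64 tested genes, 1 imBAT library stood apart from the other imBAT libraries by Dixon's criterion for 4 samples (the gap to the nearest library as a share of the group's range), where chance flags about 1 in 20 groups. In imBAT replicate 2, Il1rl2 stood at 29.4 CPM, while the rest of the group had 53.4 to 58.0 CPM. Il16 was 45.8 CPM in imBAT replicate 3, the library with the lowest summed T cell markers, against 72.2 to 77.5 CPM. Il17rb was 12.0 CPM in imBAT replicate 4, against 7.82 to 8.32 CPM, and Il23a was 0.70 CPM in that library, against 0.17 to 0.26 CPM.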

How the results depend on the processing

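Of the 36 called interleukin genes 30 kept their call and direction under every alternative, 6 lost the call under at least 1, and none reversed. Of 28 uncalled genes, 9 were called under some alternative. Over all genes, upper-quartile scaling gave 8180 lower calls against 5084, and over the pathway lists 9 higher calls against 15. Leaving out each library in turn gave 4495 to 6447 higher and 3024 to 5097 lower calls over all genes, 9 to 12 and 23 to 26 among the interleukin genes, and 7 to 18 and 19 to 26 in the pathway lists. The extremes of 3024 and 7 came without sham replicate 2. The cause was not tested.

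Whether the number opening each title pairs the samples was left unsettled. Same-number correlations were 0.10, 0.11 and -0.01, against -0.14 to 0.04 for the other pairs. Not every sample correlated best with its own number, and so few libraries cannot exclude pairing. With the title number as a replicate block, 6198 genes were higher and 4655 lower, and among the interleukin genes 11 and 24. Il12rb2 (adjusted p = 0.0558) and Il22ra1 (0.0853) lost the call and Il31ra (0.0155) gained one. The number 22 opens the title of imBAT replicate 2 alone, so under the block that library adds nothing to the group effect. Simply leaving out imBAT replicate 2 also lost Il22ra1 (0.056) and gained Il31ra (0.0175), while Il12rb2 stayed called (0.0446). These changes therefore cannot be credited to pairing. Il33 (0.04), Il6st (0.03) and Il2 (-0.23), uncalled throughout, changed sign under the block.

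All other sign changes were in genes not called with the main settings, of which Il1b (0.50) and Il2 (0.45) had the largest main log2 fold changes. With upper-quartile scaling Il1r1 was -0.06, Il15ra -0.10, Il27 -0.24 and Il11ra2 ENSMUSG00000095456 -0.08. With voom Il33 was 0.14, Il6st 0.04 and Il27 -0.23. Leaving out a library gave ranges of -0.02 to 0.75 for Il1b, -0.21 to 0.04 for Il33, -0.15 to 0.76 for Il2, -0.36 to 0.30 for Il27, -0.09 to 0.59 for Il11ra2 ENSMUSG00000095456, and -0.06 to 0.04 for Il6st. Depth limits the 20 genes under the filter, whose differences were not detectable.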

Other observations

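Cytokine and receptor genes of the same families that carry other names were counted with the pathway lists. Here 9 of 21 tested genes rose and 5 fell (42.9% and 23.8%, against 24.3% and 19.3% of all genes tested). Ligands that act through gp130 split. Ctf1, which encodes cardiotrophin-1, went from 1.83, 0.64 and 1.13 CPM in sham to 5.25, 7.31, 6.25 and 5.35 CPM in imBAT (5.04-fold higher, adjusted p = 0.00192 in edgeR), and Lif from 3.74, 2.29 and 4.04 CPM to 7.30, 8.10, 9.47 and 6.52 CPM (2.34-fold, adjusted p = 0.00506). Osm, a product of leukocytes, went from 6.85, 8.33 and 7.67 CPM to 3.87, 2.85, 1.50 and 2.76 CPM (2.77-fold lower, adjusted p = 0.00473), and Clcf1 from 76.3, 93.9 and 84.7 CPM to 30.4, 38.6, 15.9 and 32.7 CPM (2.89-fold lower, adjusted p = 0.00286). The groups were apart for all 4 genes. Csf2rb, the common beta chain that pairs with Il3ra and Il5ra, fell 1.72-fold (adjusted p = 0.00168), and the near-identical Csf2rb2 1.81-fold (adjusted p = 0.00145), so reads may be shared between them.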
